A study of Mus musculus with 14 samples.

Results

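Gene expression in the ovary of control mouse embryos was compared between the embryonic stages E14.5 and E16.5, named for the days of gestation. The members are the 7 arrays whose titles name a control ovary, 3 at E14.5 and 4 at E16.5, out of 14 arrays in the series. The other 7 arrays are ovaries of the same 2 stages in which the nuclear receptor gene Coup-tfII (symbol Nr2f2) was deleted with WT1-CreERT2, a tamoxifen-activated recombinase driven in Wt1-expressing cells, acting on a floxed allele. The control embryos shared the handling of the knockouts. Their dams received tamoxifen at 2 mg per 10 g of body weight on E11.5 and again on E12.5, and the strain was a mixture of C57BL/6, Swiss Webster and B6129SF1/J. The sources used here do not say whether control embryos carried the recombinase or the floxed allele. The controls are therefore tamoxifen-exposed ovaries of a mixed strain, not untreated ovaries of an inbred strain. The labels call the arrays of a group biological replicates and do not say how many ovaries or embryos went into each, so the p-values measure the spread between these samples. Whole ovaries were used, and in whole tissue fewer cells of a type and less RNA per cell cannot be told apart.

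Between these days the germ cells of the mouse ovary leave the mitotic cycle and pass through the early stages of meiotic prophase, in which homologous chromosomes pair along the synaptonemal complex and recombine. Retinoic acid and bone morphogenetic protein signals switch on Stra8, the regulator that starts the meiotic programme, while pluripotency genes carried over from primordial germ cells are shut off. Around the germ cells, pre-granulosa cells marked by Foxl2 and held on the female path by WNT signalling enclose them in cords, and interstitial cells marked by Nr2f2 lay down collagen and other matrix between the cords.

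The arrays hold 1 linear signal for each probe set, a group of short probes against the 3' part of a transcript. Correlations of log2 values across probe sets were 0.974 to 0.976 among the E14.5 control arrays, 0.982 among the E16.5 control arrays and 0.861 to 0.873 between them. The stages also differed in measures that are not ovarian genes. The bioB hybridization spike read between 1429 and 1541 at E14.5 but between 4555 and 5909 at E16.5, the brightest probe set read 47294 to 52640 against 24093 to 28607, and the Gapdh 3' minus 5' difference (log2) ran from -0.42 to -0.059 against 1.67 to 1.83. Other measures moved the opposite way: the same difference for Actb was 0.80 to 0.98 and then 0.17 to 0.29, and the dap spike fell from 3553 to 7263 down to 1606 to 1968. Neither scan nor hybridization dates are given in the labels. Embryonic stage and the processing of the arrays therefore cannot be told apart in any single probe set. Genes with at least 2 probe sets, all moving the same way, are counted apart, and the rankings of leading genes below are limited to them. Many germ cell genes named, such as Sox2, Stra8, Sycp3 and Ddx4, had only 1 probe set of mean signal above 62. Markers of the ovary were present at both stages: the 5 pre-granulosa markers fixed for this check summed to between 17389 and 23345 at E14.5 and between 11784 and 12877 at E16.5, and the 5 germ cell markers to between 43805 and 52359 and between 9586 and 13419. Of 4 Sertoli cell markers 2 had a mean signal above 62, while Dhh and the hormone gene Amh (5.99 over the 7 arrays) were dim. Sertoli sums on the E14.5 arrays were 254 to 320, and those on the E16.5 arrays, 418 to 521, did not overlap them. All 3 kidney markers were dim. Among 3 adrenal cortex markers Mc2r and Cyp11b1 were dim and 1 was above 62. Of the 2 mesonephric duct markers with a probe set, 1 was above 62. Absence of Sertoli, adrenal or duct cells was therefore not shown. Liver genes were high in E16.5 controls 2 and 4, and results that rest on those arrays are given with and without them.

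Of 12506 genes tested, 8225 differed between the stages in control ovaries (65.8%, limma with Benjamini-Hochberg adjustment), 3760 of them higher at E16.5 (30.1%) and 4465 lower (35.7%). The arrays of the stages did not overlap for 68.7% of genes. Among the 8225 calls 45.7% were higher, a share that was 31.8% after centring each array on its median and 54.6% when the probe sets of a gene were averaged. The median log2 change over all genes tested was -0.066 as deposited, -0.33 after median centring, -0.19 after quantile normalization and 0.075 with averaged probe sets. A gene was represented by its brightest probe set and counted as called at an adjusted p below 0.05. With so large a background, a list of genes is described below by its counts beside these percentages, and a share near them is not particular to the list.

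Probe sets of the same gene often moved apart. Of 6301 genes with 2 or more probe sets of mean signal above 62, all probe sets moved the same way in 2656 and moved apart in 3645. Of the 3418 genes with exactly 2, 54.6% agreed in direction, and the correlation of their log2 changes across genes was 0.13. Pairs with unrelated directions would also agree about as often as not, so agreement in direction alone is a weak guide. The same brighter probe set correlated at 0.96 between the stage change of controls and that of knockouts, across genes that are not independent replicates. Agreement rose with the size of the change, from 40.1% of the 4251 genes with changes below 1 on the log2 scale to 52.4% of the 147 genes with changes of 3 or more. Among the 2656 agreeing genes 1902 were called (71.6%), 1071 higher and 831 lower. When every probe set of the gene also had to pass the threshold, 745 higher and 546 lower genes were left.

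**Figure D1:**
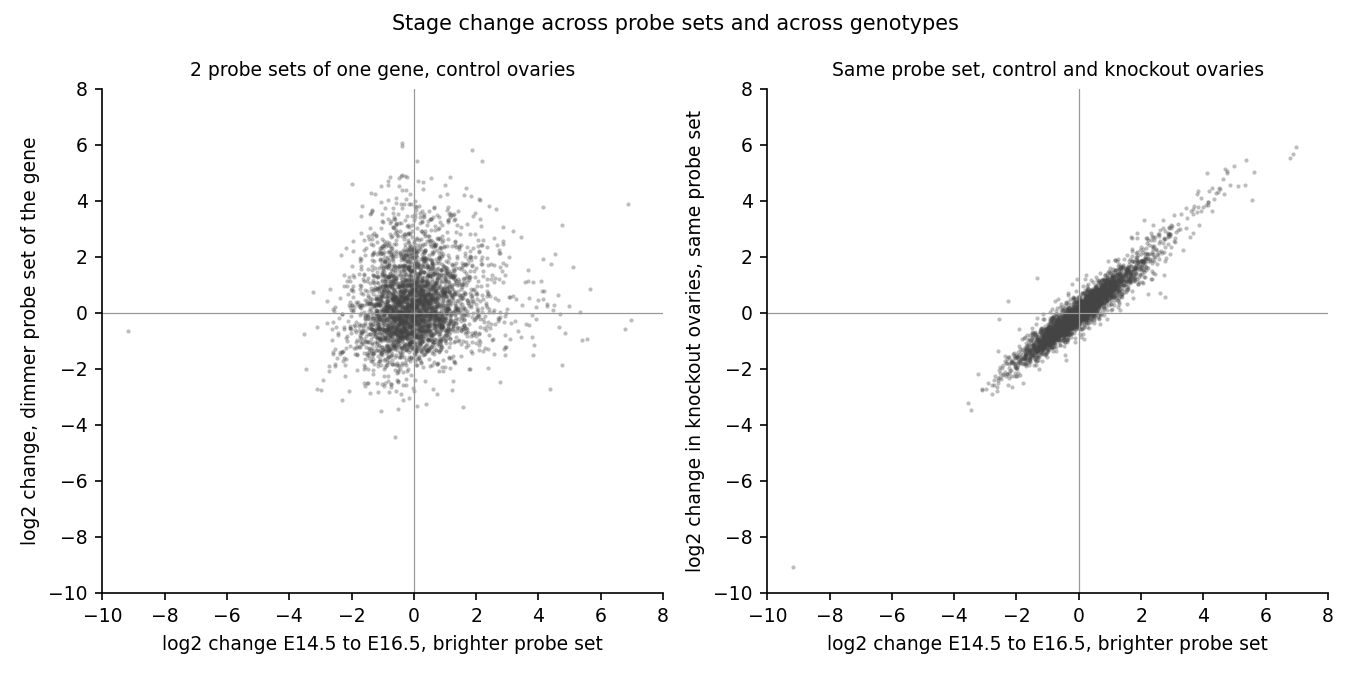
Each point is 1 of 3418 genes with exactly 2 probe sets; the x axis is the log2 change from E14.5 to E16.5 of the brighter probe set in control ovaries, and the y axis is the change of the dimmer probe set (left) or of the same probe set in knockout ovaries (right). The left cloud has a correlation of 0.13 and the right cloud lies along the diagonal with a correlation of 0.96.

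Genes were also ranked, after their values were seen, by the least moving of their agreeing probe sets, and the leading ones have varied roles. All 3 probe sets of Hbb-y, the embryonic beta-like globin of primitive red cells, fell by 5.63 or more on the log2 scale. Esco2, which acetylates cohesin in S phase, fell by 2.74 or more in both of its probe sets, and Stk31, a germ cell protein with a Tudor domain, by 2.73 or more. All 3 probe sets of Dusp9, a phosphatase of MAP kinases, fell by 2.40 or more. In the other direction, both probe sets of Cd247, the T cell receptor zeta chain, rose by at least 3.91, both of the ETS factor gene Elf4 by at least 3.80, and all 3 of the atypical chemokine receptor gene Ackr4 by at least 3.61. These 3 genes were below the filter level at E14.5, where the pseudocount of 16 added before taking logs sets much of the change: with pseudocounts of 1 and 64 the brightest probe set of Cd247 rose by 8.83 and 5.16, that of Elf4 by 5.07 and 3.03, and that of Ackr4 by 5.69 and 4.27. Of the 162 genes followed, 19 had a stage mean below that level, and for 18 of them another pseudocount moved the fold by over 1.5 times.

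Called agreeing genes whose arrays did not overlap were also ordered by the brightest probe set, and this order shared only part of its leading genes with the one above. Cd247 again rose most, by 6.88, Ackr4 rose by 5.19, and Hbb-y, at -5.73, was next to the lowest. The lowest was Pik3cd, a leukocyte PI3 kinase subunit, whose brightest probe set read 12825, 23851 and 21481 at E14.5 but only 1.36 to 31.5 at E16.5. It fell by 9.18 on the log2 scale, a change of -10.43 with a pseudocount of 1 and -7.84 with 64, and its other probe set above the filter changed by only -0.64. Next to Cd247 at the top, Zfp358, a zinc finger gene, rose by 5.33 in its brightest probe set and changed by 0.020 in its other. Spsb1, an adaptor of ubiquitin ligases, rose by 5.47 with 0.30 in the least moving of 4 probe sets. With pseudocounts of 1 and 64 the brightest probe set of Zfp358 rose by 5.90 and 4.33 and that of Spsb1 by 6.98 and 4.01. Map1b, Gba2, Nf1 and Atp1b2 showed the same gap, with least moving probe sets at 0.74, 0.24, 0.11 and 0.64. Malat1, a nuclear noncoding RNA, kept its direction across all 7 probe sets: its brightest read between 710 and 822 at E14.5 and between 18255 and 20377 at E16.5, and the changes ran from 1.73 to 5.21.

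**Figure D2:**
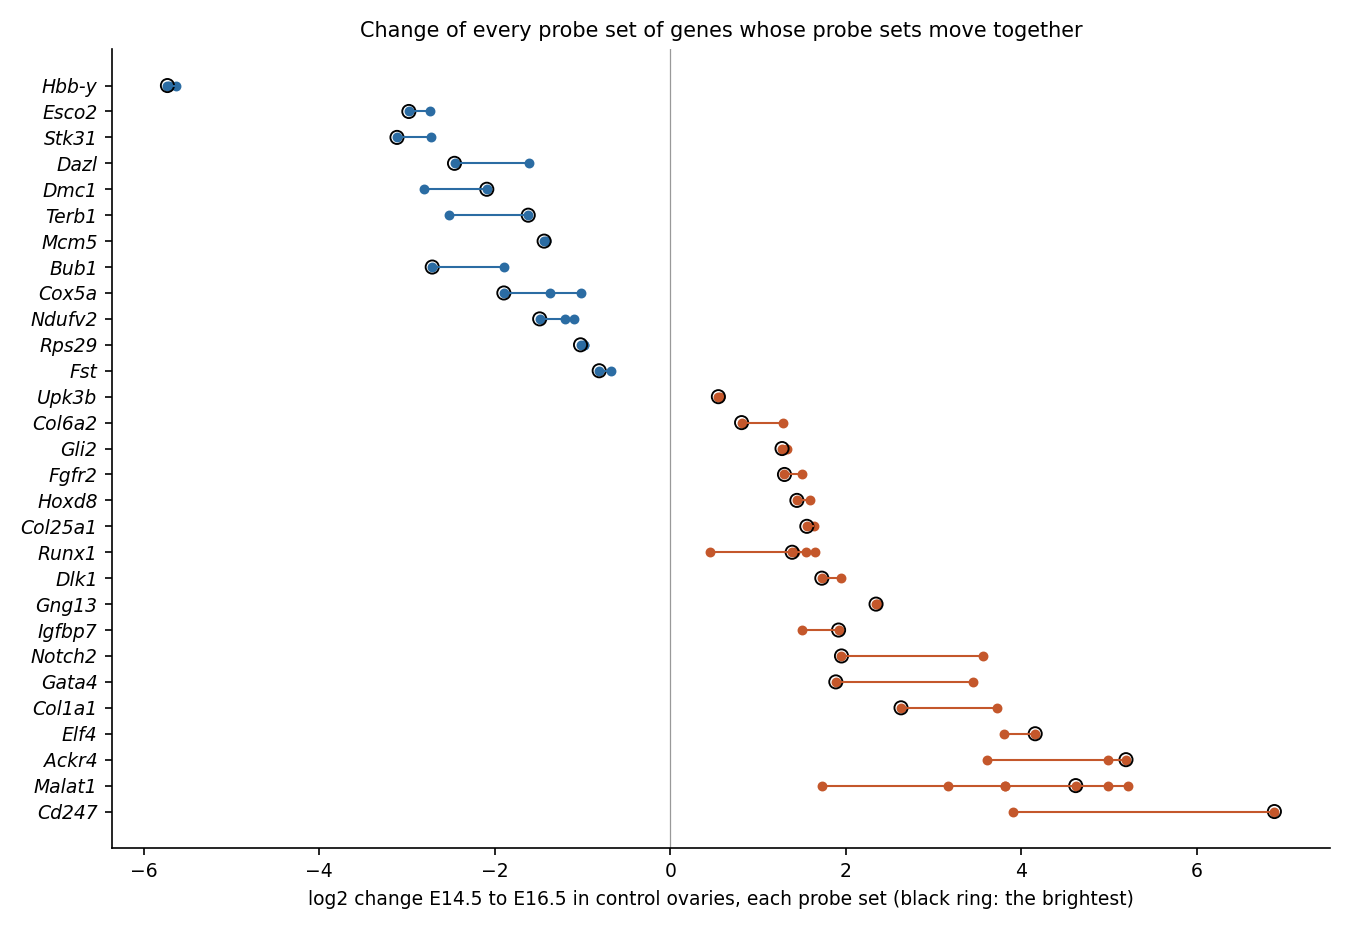
Each row is a gene whose probe sets all move the same way, each point is 1 probe set, and the x axis is its log2 change from E14.5 to E16.5 in control ovaries, with a black ring on the brightest. Points lie close together for Hbb-y, Mcm5, Gli2 and Gng13 and far apart for Malat1, from 1.73 to 5.21, and Cd247.

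Genes of the early germ cell state fell together. Of 15 pluripotency and early germ cell genes tested, 0 rose and 11 fell, beside 30.1% higher and 35.7% lower over all genes tested. Their median log2 change was -1.54 against -0.066 over all genes. Of the 2 with agreeing probe sets 1 fell and 0 rose. Sox2, Dppa5a, Pou5f1 and Lin28a each had 1 probe set above the filter level. Sox2, a pluripotency factor, read 1216, 451 and 446 at E14.5 and 21.8, 22, 16.0 and 13.5 at E16.5. The groups did not overlap, and the E16.5 values lay below the filter level. Sox2 fell by 4.24 ± 0.91 (SE) on the log2 scale (limma adjusted p = 0.00057) and changed by -5.05 and -3.08 with pseudocounts of 1 and 64. Dppa5a, expressed in pluripotent cells and early germ cells, read 5306, 2286 and 2681 and then 242, 323, 474 and 401, a fall of 3.13 ± 0.46 (SE, limma adjusted p = 1.38e-05).

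Pou5f1, the pluripotency factor Oct4, read 565, 225 and 264 at E14.5 and 4.08, 59.9, 35.9 and 40.3 at E16.5 (log2 change -2.89 ± 0.51, SE, and -3.63 and -2.01 with pseudocounts of 1 and 64). Lin28a, a repressor of let-7 microRNA maturation, fell by 2.94 ± 0.51 (SE), from 139 to 310 down to 2.03 to 19.5, and by 4.12 and 1.81 with those pseudocounts. Sall4, a zinc finger factor of germ cells, was the member with 2 agreeing probe sets that passed, with falls of 2.27 and 1.70. E14.5 control 1 had the highest value of Sox2, Pou5f1, Dppa5a, Lin28a and Sall4 among the 3 E14.5 arrays. The same array had the lowest Wnt4, Fst and Foxl2. Dppa3, a maternal factor made in germ cells, followed it with 2462, 701 and 805, and overlapped the E16.5 values of 179, 295, 918 and 147. Its fall of 1.87 (limma adjusted p = 0.0258) was 1.31 without E14.5 control 1 (limma adjusted p = 0.151), and the call was also lost without E16.5 control 1 (0.0671), without 4 (0.0743) or without 2 and 4 together (0.167).

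Genes that start meiosis were mostly lower at E16.5. Of 13 meiotic entry genes tested 9 fell and 2 rose, beside 35.7% lower and 30.1% higher over all genes tested, and the median log2 change was -1.01. Stra8 read 8166, 5351 and 5443 at E14.5 and 139, 158, 99.8 and 298 at E16.5. No E16.5 array came near the E14.5 values, and the fall was 5.13 ± 0.69 on the log2 scale (SE), or 35.1-fold (limma adjusted p = 4.34e-06, 1 probe set). Bmp2, a ligand made by ovarian somatic cells, fell from 1901 to 2410 down to 613 to 923 (log2 change -1.54 ± 0.17, SE). Dmrt1, a factor that acts on Stra8 in the fetal ovary, fell by 2.57 ± 0.54 (SE). Gata4, which the bipotential gonad needs for its formation, rose from 599 to 828 up to 2379 to 2746, by 1.89 and 3.45 in its 2 probe sets.

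The meiotic prophase list held 33 tested genes, of which 24 fell and 7 rose, beside 35.7% lower and 30.1% higher over all genes tested. Of the 6 with agreeing probe sets 4 fell and 2 rose. The list's median log2 change was -1.48, and its median in knockout ovaries was -1.20. Of the 33 genes 11 lay in the brightest 10% of all genes, where the median change of all genes was -0.40 and 55.3% were lower. Over the 42 probe sets of the list 29 were lower and 10 higher, while over all 23764 probe sets 31.5% were lower and 36.6% higher. The list's median stayed negative under all scalings and alternatives.

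Among the recombination genes, both probe sets of Dmc1, the meiosis-specific strand exchange protein, fell. The brighter read 3472, 3153 and 3794 at E14.5 and 876, 663, 521 and 1356 at E16.5, a change of -2.09 ± 0.28 (SE, limma adjusted p = 5.25e-06), and the other changed by -2.81. Mei4, needed for the breaks that start recombination, read 703, 681 and 1114 and then 17.4, 8.09, 8.68 and 22.5, with the groups far apart. It fell by 4.81 ± 0.38 (SE, limma adjusted p = 9.96e-09), in 1 probe set whose E16.5 values were below the filter level, and by 5.86 and 3.49 with pseudocounts of 1 and 64. Msh5, which stabilises crossover intermediates, fell by 1.48 and 0.76 in its 2 probe sets. Psmc3ip and Mnd1, partners that help Dmc1, moved the other way: Psmc3ip rose from 451 to 595 up to 1356 to 1756 (log2 change 1.52 ± 0.13, SE, with 0.85 in its second probe set) and Mnd1 from 213 to 409 up to 527 to 760 (1.06 ± 0.24, SE). Mlh3, which acts late at crossovers, rose by 1.10 ± 0.14 (SE). Rec114, a partner of Mei4, had 2 probe sets that disagreed, at 2.38 and -1.95.

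Among genes of the chromosome axis and synaptonemal complex, Sycp3, an axis protein, read 18328, 19750 and 24490 at E14.5 and 5479, 7431, 7615 and 7100 at E16.5. It fell by 1.59 ± 0.13 on the log2 scale (SE, limma adjusted p = 1.35e-08). Tex12, Syce1 and Syce2, central element proteins, fell by 2.28, 2.32 and 1.82, and Stag3, a meiotic cohesin subunit, by 2.19. Hormad1, which marks unsynapsed axes, fell by 1.78 ± 0.16 (SE). Sycp3, Tex12, Syce1, Syce2, Stag3 and Hormad1 each had 1 probe set above the filter. Sycp1, the transverse filament that bridges the axes, read 4496, 7675 and 8577 and then 4562 to 5301; the groups overlapped, its change of -0.43 ± 0.21 (SE) did not pass (limma adjusted p = 0.073), and it passed without E14.5 control 1 (-0.72, 0.00366), after median centring (-0.70, 0.00659) and with the 7 control arrays alone (0.0455). At the telomere attachment, Terb1 fell by 1.62 and 2.52 in its 2 probe sets and Sun1 by 1.56 and 0.43.

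Promoters of these genes were looked at because the list moved together. The windows are the 250 bases before the gene start in RefSeq (GRCm38.p6), printed 5′ to 3′ on the strand of the gene, and capitals mark matches on either strand to TCCCGC, the core letters of E2F sites, or CACGTG, the E-box bound by MAX partners. E2F6 and MGA with MAX are known as repressors of germline genes in other cells. The 4 shown are an axis gene, a central element gene, a recombination gene and the starter of the programme. They are Sycp3 (chr10:88459337-88459586, plus strand), Tex12 (chr9:50561269-50561518, minus strand), Dmc1 (chr15:79605110-79605359, minus strand) and Stra8 (chr6:34920698-34920947, plus strand).
Sycp3: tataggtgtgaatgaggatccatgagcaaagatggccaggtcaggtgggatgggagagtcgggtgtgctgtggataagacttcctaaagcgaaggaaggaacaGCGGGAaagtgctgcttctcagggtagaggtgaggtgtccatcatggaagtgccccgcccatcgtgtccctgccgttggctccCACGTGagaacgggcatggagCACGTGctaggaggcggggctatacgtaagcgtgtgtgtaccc
Tex12: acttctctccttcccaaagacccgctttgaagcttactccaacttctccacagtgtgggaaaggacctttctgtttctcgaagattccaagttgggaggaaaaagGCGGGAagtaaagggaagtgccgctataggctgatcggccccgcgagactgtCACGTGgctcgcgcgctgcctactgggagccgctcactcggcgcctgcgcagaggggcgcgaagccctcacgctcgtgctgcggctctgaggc
Dmc1: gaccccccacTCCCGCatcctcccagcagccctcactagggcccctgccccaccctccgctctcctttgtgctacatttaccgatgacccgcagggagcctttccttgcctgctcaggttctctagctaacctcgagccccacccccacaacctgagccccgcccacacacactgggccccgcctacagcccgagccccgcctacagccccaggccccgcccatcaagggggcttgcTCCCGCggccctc
Stra8: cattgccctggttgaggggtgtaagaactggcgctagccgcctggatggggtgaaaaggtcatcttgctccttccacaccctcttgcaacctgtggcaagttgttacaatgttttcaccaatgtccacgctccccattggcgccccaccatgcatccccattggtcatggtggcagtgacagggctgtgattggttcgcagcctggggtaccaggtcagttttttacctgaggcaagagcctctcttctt
Sycp3 had 1 match to TCCCGC and 2 to CACGTG, Tex12 1 of each, and Dmc1 2 to TCCCGC. Neither string occurs in this window of Stra8. Of the 34 meiotic prophase genes with a promoter in the table, 15 held TCCCGC (44.1%) and 8 held CACGTG (23.5%). Over all 27025 promoters of the table the shares were 16.9% and 6.05%, and over the 10126 promoters of genes tested they were 30.7% and 8.47%. Promoters of all genes lower at E16.5 held TCCCGC in 31.9% and those of genes higher in 29.9%. Among the prophase genes 11 of 19 promoters of falling members held TCCCGC and 1 of 7 of rising members, while 5 of 19 and 2 of 7 held CACGTG. Both strings together were in 3 of the 34, among them Sycp3 and Tex12, so the promoters shown do not stand for the list. The motifs do not overlap each other, and a match is a description of letters, not a binding site.

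Genes common to germ cells fell more often than they rose. Of 22 germ cell core genes tested 14 fell and 3 rose, beside 35.7% lower and 30.1% higher over all genes tested. Their median log2 change was -1.06, and 4 of them lay in the brightest 10% of all genes, where 55.3% were lower. Of the 3 with agreeing probe sets 2 fell and 0 rose, and Ddx4 had 1 probe set above the filter. Ddx4, the germ cell RNA helicase, read 9140, 6723 and 8094 at E14.5 and 1097, 1206, 1333 and 1219 at E16.5. The lowest E14.5 array lay far above the highest E16.5 array, and the fall was 2.69 ± 0.14 (SE, limma adjusted p = 4.78e-11). Dazl, an RNA-binding protein that licenses germ cells for meiosis, fell in both probe sets, by 2.46 and 1.60. Slc25a31, a germ cell ADP/ATP carrier from the meiotic prophase list, fell from 11762 to 14791 down to 1428 to 1724.

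The core members that rose belong to the piRNA pathway, which silences transposons. Tdrd1, a Tudor scaffold protein, read 5.44, 9.42 and 7.76 at E14.5 and 282, 310, 618 and 236 at E16.5 (log2 change 3.91 ± 0.38, SE, and 5.33 and 2.50 with pseudocounts of 1 and 64). Tdrd9, an RNA helicase, read 112 to 205 and then 1015, 1831, 3478 and 1060 (3.33 ± 0.44, SE). Piwil2, a PIWI protein, rose from 760 to 1048 up to 1727 to 3699 (1.43 ± 0.27, SE). Each has 1 probe set above the filter. E16.5 control 3 had the highest value of all 3 genes. Mael, another piRNA factor, fell by 0.97 ± 0.13 (SE).

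Regulators of oocyte growth moved in both directions. Of 11 tested 4 rose and 6 fell, and the median log2 change of -1.03 became 0.25 when probe sets were averaged. Nobox, a homeobox factor of primordial oocytes, read 17.0, 45.3 and 23.8 at E14.5 and 114, 168, 425 and 94.1 at E16.5, a rise of 2.10 ± 0.55 (SE, limma adjusted p = 0.00277), or of 2.61 and 1.37 with pseudocounts of 1 and 64. Lhx8, a LIM homeobox factor acting with it, read 72.0, 135 and 82.9 and then 197, 358, 789 and 198, a rise of 1.64 ± 0.45 (SE). For both genes the E16.5 values did not overlap those of E14.5, and E16.5 control 3 was again the highest. Sohlh2, a partner factor, fell by 1.32 ± 0.23 (SE). Taf4b had 3 probe sets at -1.75, -1.36 and 3.85, and Kit, the receptor on germ cells, had 2 at -1.94 and 0.96, so neither has a settled direction; averaged over probe sets Taf4b was at 0.25.

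**Figure D3:**
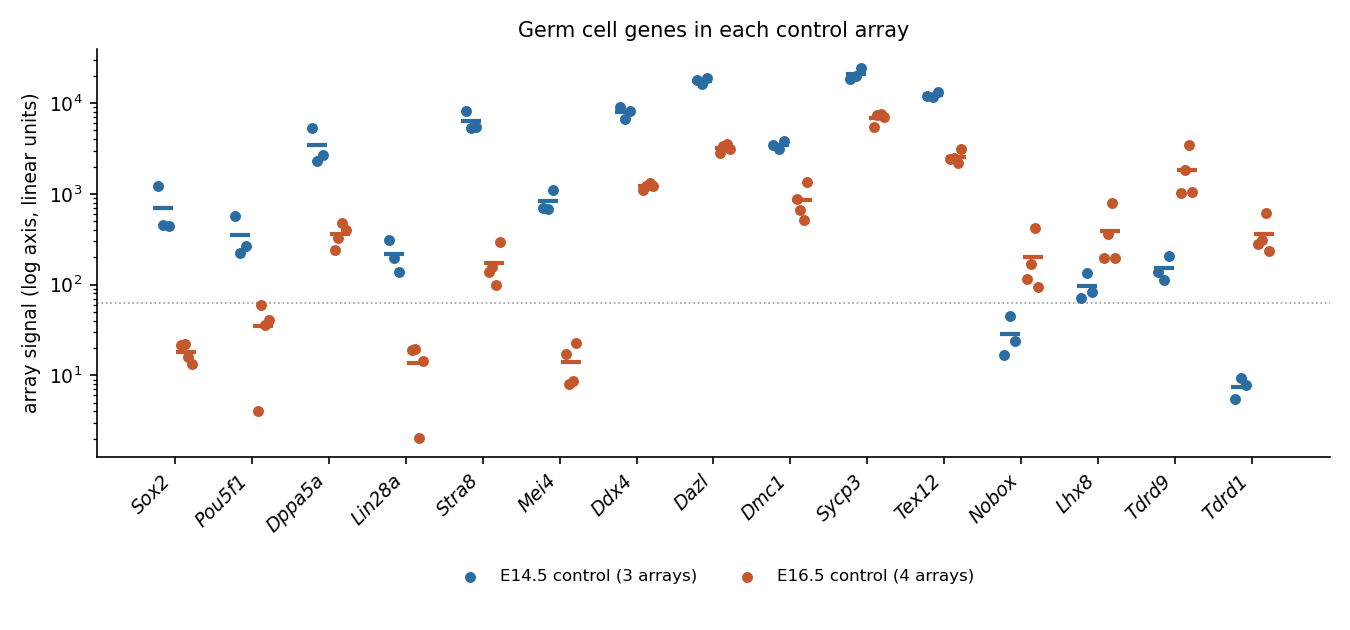
Points are the signals (log axis) of 15 germ cell genes in each of the 3 E14.5 and 4 E16.5 control arrays, short lines are group means and the dotted line is the filter level of 62. Pluripotency, meiotic entry and prophase genes lie lower at E16.5, and Nobox, Lhx8, Tdrd9 and Tdrd1 lie higher.

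Pre-granulosa genes split. Of 23 tested 5 rose, 9 fell and 9 did not pass, and their median of -0.013 lay near that of all genes, turning to 0.42 with averaged probe sets. Gng13, a G protein gamma subunit enriched in fetal pre-granulosa cells, read 2404, 3249 and 1514 at E14.5 and 11233, 11795, 11150 and 12454 at E16.5. All E16.5 arrays lay above all E14.5 arrays, and both probe sets changed by 2.35 (SE 0.21 for the brighter, limma adjusted p = 3.59e-08). Runx1, a transcription factor of these cells, rose in all 5 probe sets, by 0.46 to 1.65. Axin2, a target and brake of WNT signalling, rose by 1.05 and 4.26 in its 2 probe sets.

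Foxl2, the factor that keeps the ovary female, read 1274, 2542 and 2695 and then 2672, 2527, 2580 and 2319. The groups overlapped, its brightest probe set changed by 0.29 ± 0.22 (SE, limma adjusted p = 0.251), and leaving out single arrays moved it from -0.054 (without E14.5 control 1) to 0.48. Its dimmer probe set changed by 1.63, and the average of both passed at 0.96 (limma adjusted p = 0.00241). Wnt4, the WNT ligand of ovarian fate, read 2214, 4669 and 3755 and then 1588, 1334, 1503 and 1313 and fell by 1.23 ± 0.21 (SE, limma adjusted p = 6.78e-05) in its brightest probe set, while its other was at -0.013. Fst, which binds activin, fell by 0.81 and 0.67. Irx3, a homeobox gene of pre-granulosa cells, fell from 5960 to 7725 down to 2530 to 3631. The KIT ligand gene Kitl had 4 probe sets from -1.59 to 3.89, so that its fall in the brightest became a change of 1.57 with averaged probe sets.

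Transcription factors that build the gonad included 2 that rose and 6 that fell of 15. Wt1, whose promoter drives the recombinase of the knockout, read 3772, 5309 and 5622 and then 3986 to 4431; it changed by -0.20 ± 0.14 (SE, limma adjusted p = 0.217) and by 0.049 after quantile normalization. It passed as lower without E14.5 control 1 (-0.37, limma adjusted p = 0.0191) and after median centring (-0.46, 0.00608). Nr5a1, a regulator of steroidogenic and somatic gonad cells, changed by 0.20 ± 0.16 (SE) in its brighter probe set, which did not pass (limma adjusted p = 0.264) and turned to -0.065 after median centring, and by 2.27 in the dimmer. Averaged over both it passed at 1.24 (limma adjusted p = 4.72e-07). Zfpm2, the Gata4 cofactor, fell by 1.14 and 0.40. Sox9, the Sertoli factor, read 50.1, 84.8 and 94.2 at E14.5 and 240, 368, 254 and 235 at E16.5 (log2 change 1.66 ± 0.25, SE), in 1 probe set above the filter, with a second, dimmer one at 0.22.

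Of 16 surface epithelium genes 2 rose, 3 fell and 11 did not pass, with a median of -0.017. Bnc1, a zinc finger factor of epithelia, fell by 1.12 ± 0.13 (SE, limma adjusted p = 6.82e-07) in its 1 probe set. The brightest probe set of Igfbp5, which binds insulin-like growth factors, fell by 0.39 (limma adjusted p = 0.0229), but it has a second at 4.94. Its call was lost without E14.5 control 2 (-0.25) or 3 (-0.28) or E16.5 control 3 (-0.36), and it was at 0.10 after quantile normalization and 2.27 averaged over probe sets. The mesothelial gene Upk3b rose in both probe sets, by 0.55 and 0.57. Its change was 0.28 after median centring and 0.47 without E16.5 controls 2 and 4, and neither passed (limma adjusted p = 0.113 and 0.0574). Lgr5, a WNT pathway receptor of the surface, had 2 probe sets that disagreed, at -0.81 and 1.79, and averaged 0.49.

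Of 18 interstitial genes tested 6 rose and 2 fell, beside 30.1% higher and 35.7% lower over all genes tested. The list's median of 0.086 turned to -0.18 after median centring and was -0.24 in knockouts. Of the 4 genes with agreeing probe sets 3 rose and 0 fell. Over the 45 probe sets of the list 23 were higher and 4 lower, beside 36.6% and 31.5% over all probe sets. Col1a1, the main fibrillar collagen chain, read 1204, 1534 and 1813 at E14.5 and 8299, 9536, 9181 and 10500 at E16.5. No values overlapped, and it rose by 2.63 ± 0.23 (SE, limma adjusted p = 3.66e-08), with 3.73 in its second probe set. Dlk1, a Notch-family ligand of stromal progenitors, read 661, 995 and 862 and then 2532, 3326, 2288 and 3095, with rises of 1.73 and 1.94. Gli2, a transcription factor of the hedgehog pathway, read 526, 583 and 521 and then 1482, 1145, 1353 and 1383, with rises of 1.27 and 1.33.

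Nr2f2 itself, the mark of interstitial progenitors, had 6 probe sets that did not agree. The brightest read 217, 493 and 422 at E14.5 and 3819, 4950, 4309 and 4250 at E16.5, a change of 3.54 ± 0.24 (SE), and the others were at 3.80, 1.67, 1.58, 0.28 and -1.17. In the knockouts the brightest changed by 3.41 between the stages. Star, which carries cholesterol into mitochondria for steroid synthesis, rose in all 3 probe sets, by 0.56 to 1.16, from 98.6 to 138 up to 213 to 381. Cyp11a1, the first enzyme of steroid synthesis, was at 109 to 126 and then 138 to 228 and did not pass (limma adjusted p = 0.098).

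Matrix genes rose more often than they fell. Of 25 collagen genes tested 12 rose, 4 fell and 9 did not pass (median 0.35). Of 44 other matrix genes 17 rose, 3 fell and 24 did not pass (median 0.37). Over all genes tested 30.1% were higher and 35.7% lower, so the share of other matrix genes that rose lay not far from that of all genes. The collagen genes with agreeing probe sets counted 7 higher and 1 lower of 12, and the other matrix genes 7 higher and 1 lower of 13, beside 40.3% higher and 31.3% lower of all agreeing genes. Both medians stayed positive under all scalings, at 0.088 and 0.10 after median centring. Col25a1, a transmembrane collagen, rose by 1.56 and 1.64, Col5a1, a regulator of fibril width, by 0.55 to 2.13, and Col6a2, of the microfibrillar collagen, by 0.81 and 1.29. Col3a1, the second fibrillar collagen, fell by 0.70 in its brightest probe set with -0.025 in the other, and was at 0.053 after quantile normalization.

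Among the other matrix genes, Lamc1, the shared laminin gamma chain of basement membranes, read 418, 745 and 809 at E14.5 and 2119, 2208, 2501 and 2651 at E16.5. It rose by 1.87 ± 0.22 (SE, limma adjusted p = 8.64e-07), with 5.82 in its second probe set. Lama4, an alpha chain of vessel laminins, rose by 0.77 and 3.01. Eln, elastin, rose by 1.38 and 3.13, Loxl1, which cross-links elastin, by 1.36 and 2.89, Thbs1, a matricellular glycoprotein, by 2.30 and 0.35, and Bgn, a small proteoglycan, by 0.21 to 1.47 over 3 probe sets.

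Smooth muscle genes counted 7 higher and 1 lower of 10, beside 30.1% higher and 35.7% lower over all genes tested, with a median of 0.99. Only 1 of the 10 had agreeing probe sets. Myh11, the smooth muscle myosin, read 407, 304 and 203 and then 1317, 1019, 1032 and 906, a rise of 1.79 ± 0.20 (SE). Myocd, its master coactivator, rose from 93.2 to 154 up to 311 to 493. Acta2, smooth muscle actin, was at 2362 to 2814 and then 2240 to 2429, overlapped, and did not pass (log2 change -0.14, limma adjusted p = 0.494), although it passed at -0.41 after median centring (0.0427). Des, desmin, fell by 1.24 ± 0.27 (SE).

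**Figure D4:**
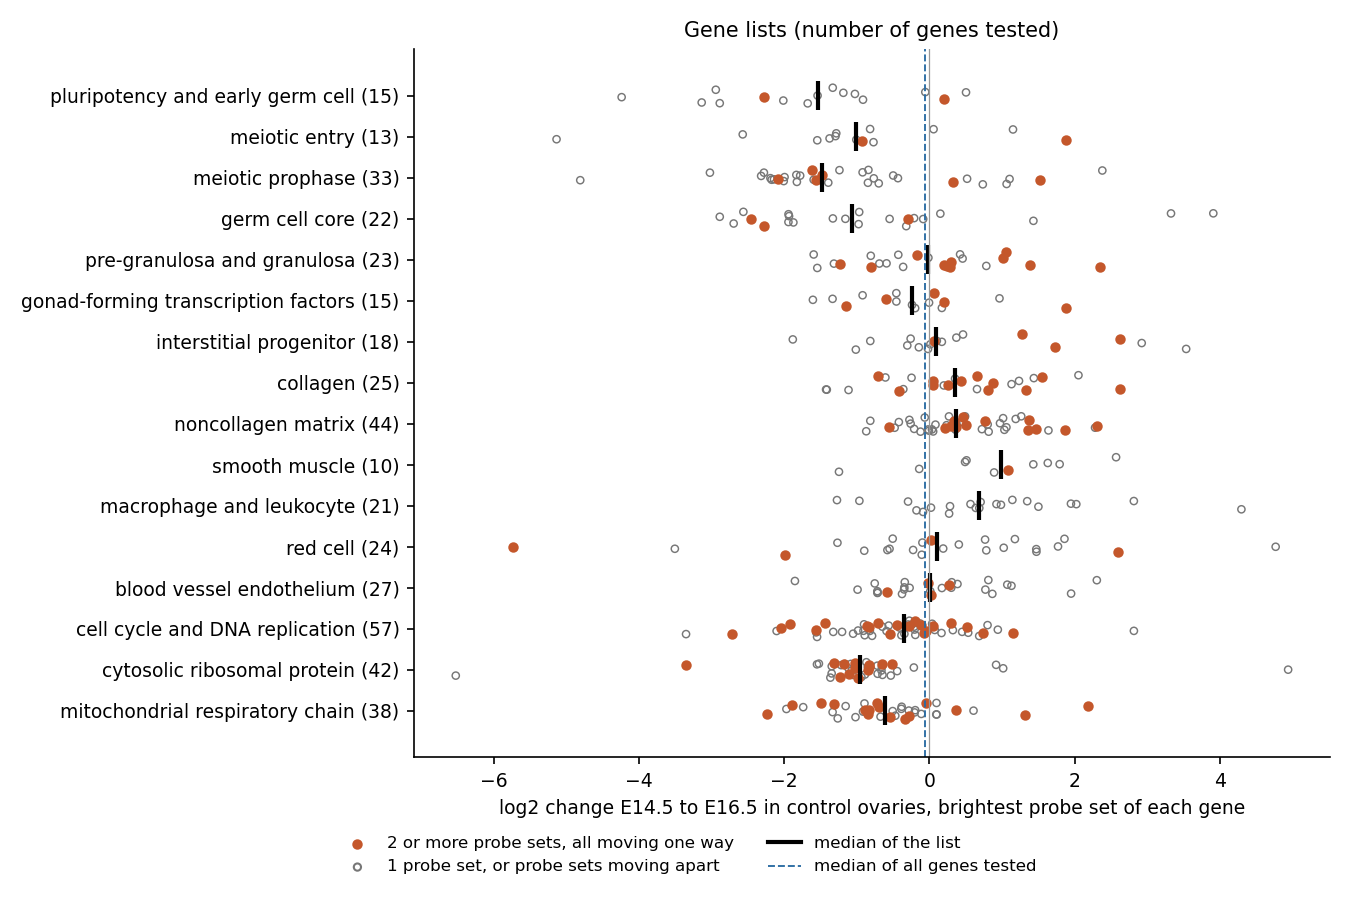
Each row is a gene list with its number of tested genes, each point is a gene placed at its log2 change from E14.5 to E16.5 in control ovaries, filled where 2 or more probe sets move the same way, and the black bar is the list's median. Germ cell lists lie left of the dashed median of all genes (-0.066), with -1.48 for meiotic prophase, and smooth muscle, macrophage and matrix lists lie right of it.

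Signalling lists split, and none of the medians of the WNT, bone morphogenetic protein, FGF, Notch, insulin-like growth factor and retinoic acid lists kept its sign under all alternatives, so the lists are given mostly by members with agreeing probe sets. In the WNT list 13 rose and 11 fell of 33 (median 0.068); Dkk3, a secreted relative of WNT inhibitors, rose by 1.96 and 1.30 and the co-receptor gene Lrp6 by 1.52 and 0.51. In the list of bone morphogenetic protein, TGF-beta and activin genes 14 rose and 12 fell of 37 (median 0.092). Tgfb2, a ligand, rose from 530 to 607 up to 1929 to 2108 in the brightest of 4 probe sets (log2 change 1.80 ± 0.16, SE), with 0.27 in the least moving. Smad5, a mediator of bone morphogenetic protein signals, rose by 0.69 to 1.51, and the activin receptor gene Acvr2a by 0.61 and 2.52.

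The receptor gene Fgfr2 read 2045, 2345 and 1960 at E14.5 and 5399, 5369, 5297 and 4859 at E16.5. All E16.5 values lay above all E14.5 values, and it rose by 1.30 ± 0.09 (SE, limma adjusted p = 3.14e-09), with 1.5 in its second probe set. Spry2, a feedback inhibitor of that pathway, rose by 0.87 and 2.32. In the FGF list 6 rose and 5 fell of 15, and its median of 0.27 was -0.078 after quantile normalization.

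In the Notch list 6 rose and 4 fell of 19, and its median of 0.22 was -0.044 after median centring. The receptor gene Notch2, which acts in pre-granulosa cells during follicle assembly, read 2006, 1852 and 1747 and then 7454, 6942, 7431 and 7227, and rose by 1.95 and 3.56. The target gene Heyl rose by 0.76 and 0.73 (not past the threshold after quantile normalization, limma adjusted p = 0.0845), and Hes6, an antagonist of Hes1, fell by 0.83 and 2.45. In the list of insulin-like growth factor genes 4 rose and 5 fell of 17, and the median of 0.21 was -0.055 after median centring. Igfbp7, which binds insulin-like growth factors weakly and sits in vessel walls, rose by 1.92 and 1.5. Igf1 had 4 probe sets from -1.88 to 2.83 and Igf2, the main fetal growth factor, had 2, at -0.39 and 6.06; averaged over probe sets they were at 0.40 and 2.84, and the brightest of Igf2, which did not pass (limma adjusted p = 0.0644), was at 0.13 after quantile normalization. It passed as lower without E16.5 control 4 (-0.48, 0.0336), after median centring (-0.65, 0.00253), with the 7 control arrays alone (0.00726) and with the replicate number as a block (-0.46, 0.0275).

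Of 20 HOX genes, which pattern the body axis, 5 rose, 3 fell and 12 did not pass, with a median of 0.015; of the 5 with agreeing probe sets 3 rose and 1 fell. Hoxd8 read between 934 and 1019 at E14.5 and between 2550 and 2763 at E16.5 and rose by 1.44 and 1.60, and Hoxa3 rose by 1.0 and 1.09. Hoxa5 fell by 0.85 ± 0.27 (SE, limma adjusted p = 0.011), with -0.45 in its second probe set. In the retinoic acid list 5 rose and 4 fell of 20 (median -0.089). Rarres2, the chemerin gene, rose by 1.82 and 0.30, and Rdh11, a retinal reductase, fell by 0.62 and 0.30.

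The genes of embryonic globins fell. Hbb-y read 40711, 30458 and 33661 at E14.5 and 673, 432, 468 and 1212 at E16.5, so the lowest E14.5 value was far above the highest at E16.5. It fell by 5.73 ± 0.45 on the log2 scale (SE), or 53-fold (limma adjusted p = 7.56e-09), and by 4.74 in the knockouts. Hba-x, the embryonic alpha-like globin, read 1939, 1069 and 1448 and then 39.8, 125, 109 and 262 (log2 change -3.50 ± 0.58, SE). The 3 probe sets of Hbb-bh1, another embryonic beta-like globin, fell by 1.77 to 1.99, with overlapping arrays (397, 962 and 263, then 107, 157, 20.6 and 268) and no call without E14.5 control 2 (-1.48, limma adjusted p = 0.0726).

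The adult globin gene Hbb-b2 rose by 4.77 ± 0.28 (SE) in its brighter probe set, from 263, 287 and 215 to 7558, 9860, 3950 and 9721, while its other probe set was at -1.87. The globin copies are near identical, and which copy each probe set reads is uncertain. Slc4a1, the red cell anion exchanger, read 243, 1859 and 265 and then 3848, 5272, 646 and 6966, overlapped, and rose by 2.60 ± 0.75 (SE, limma adjusted p = 0.00567). Its rise was 3.53 without E14.5 control 2 and 3.34 without E16.5 control 3. E16.5 control 3 had the lowest values of Hbb-b2, Slc4a1 and Alas2, the heme synthesis enzyme of red cells, and E14.5 control 2 the highest Slc4a1, Alas2 and Hbb-bh1 of its stage. Over the red cell list of 24 genes 4 rose and 4 fell.

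Genes of the fetal liver, a list added after the values were seen, marked 2 of the E16.5 arrays. Alb, albumin, read 192, 133 and 200 at E14.5 and 638, 3947, 519 and 2038 at E16.5. Apoa1, an apolipoprotein, read 10.7, 9.88 and 10.1 and then 283, 1369, 207 and 838. E16.5 controls 2 and 4 were the highest for both, as for Afp and Ttr. The summed signal of the 14 liver genes with a probe set was between 853 and 1330 at E14.5 and was 2732, 16836, 2354 and 9172 in E16.5 controls 1 to 4. Of 11 liver genes tested 10 were higher and 0 lower, beside 30.1% higher and 35.7% lower over all genes tested, with a median of 2.18 (0.81 in the knockouts).

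Without E16.5 controls 2 and 4, left out after their values were seen, Alb changed by 1.65 (limma adjusted p = 0.113), Ttr by 1.75 (0.127), Afp by 0.72 (0.483) and Slc4a1 by 1.64 (0.107), none of which passed, while Apoa1 was at 3.30 (0.00756). With all arrays Apoa1 rose by 4.34, and by 5.51 and 2.99 with pseudocounts of 1 and 64. Afp had changed by 1.97 with all arrays (limma adjusted p = 0.0418) and also lost its call without any of E14.5 controls 1, 2 and 3 or E16.5 controls 2 and 4 taken singly, under both scalings, without a trend in eBayes and with the replicate number as a block. Ttr had changed by 3.06, and by 2.45 without E16.5 control 2. Without these arrays the globin changes were -5.91 for Hbb-y, -4.12 for Hba-x, -2.85 for Hbb-bh1 and 4.35 for Hbb-b2, all in the same direction. Over all genes 3276 higher and 3961 lower calls were left, and among agreeing genes 970 and 762.

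**Figure D5:**
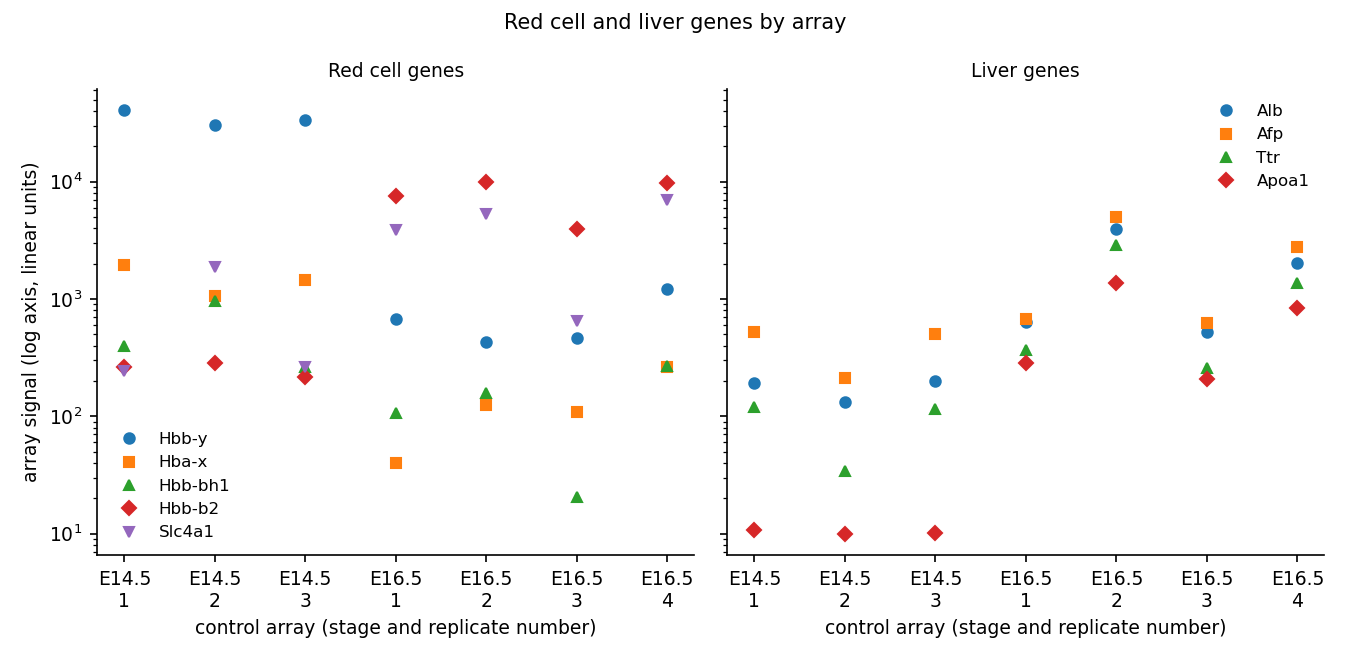
Points are the signals (log axis) of red cell genes (left) and liver genes (right) in each of the 7 control arrays, named by stage and replicate number. Hbb-y drops from 30458 or more to 1212 or less, and the liver genes are highest in E16.5 controls 2 and 4.

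Macrophage and leukocyte genes counted 10 higher and 2 lower of 21, beside 30.1% higher and 35.7% lower over all genes tested. Their median was 0.69 (0.67 in the knockouts), and none of the 21 had agreeing probe sets. Tyrobp, a signalling adaptor of myeloid cells, read 287, 279 and 227 and then 847, 744, 618 and 596 (log2 change 1.35 ± 0.22, SE). C1qb, a complement chain, rose by 1.95 in its brightest of 3 probe sets with -0.28 in the dimmest, and Laptm5, a lysosomal protein of leukocytes, by 2.82 with -0.95 in another. The receptor gene Csf1r had 3 probe sets from 0.64 to -0.91, averaged -0.0040, and did not pass after median centring (limma adjusted p = 0.117). The macrophage genes Adgre1 and C1qa fell by 1.27 ± 0.24 and 0.96 ± 0.26 (SE). The neutrophil genes S100a8 and S100a9 varied over the E16.5 arrays, at 671, 392, 1428 and 199 and at 1018, 554, 1755 and 334, with E16.5 control 3 highest; S100a9 rose by 4.30 ± 1.19 (SE), or by 5.21 and 3.20 with pseudocounts of 1 and 64. S100a8 did not pass (limma adjusted p = 0.0889), but it passed with the replicate number as a block (2.63, 0.0233) and with the 7 control arrays alone (0.00328). The mast cell protease gene Cma1 rose by 2.94 ± 0.51 (SE), by 2.28 without E14.5 control 1, by 3.54 without E14.5 control 3 and by 2.25 with a pseudocount of 64.

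Of 27 endothelial genes 7 rose and 9 fell, with a median of 0.013. Tek, the angiopoietin receptor, rose by 0.81 ± 0.16 (SE) from 303 to 364 up to 540 to 646, and Apln, the tip cell peptide apelin, fell by 1.85 ± 0.26 (SE) from 252 to 295 down to 31.9 to 104. Flt4, a VEGF receptor of lymphatic and sprouting vessels, had 2 probe sets that disagreed, at 2.31 and -0.61.

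Cell cycle genes fell more often than they rose, 25 against 8 of 57, beside 35.7% lower and 30.1% higher over all genes tested. Their median was -0.34, and 11 of the 57 lay in the brightest 10%, where 55.3% of all genes were lower. Of the 20 with agreeing probe sets 8 fell and 2 rose, beside 31.3% lower and 40.3% higher of all agreeing genes. Mcm5, of the replicative helicase, read 7817, 8674 and 9687 at E14.5 and 2779, 4301, 2649 and 3314 at E16.5. Its 2 probe sets fell by 1.44 and 1.41 (SE 0.17 for the brighter, limma adjusted p = 9.15e-07). Mcm2 and Mcm4, of the same complex, fell by 0.85 and 0.58 and by 0.83 and 1.33. Bub1 and Bub1b, of the spindle checkpoint, fell by 2.71 and 1.90 and by 0.71 and 0.84, and Top2a, topoisomerase II alpha, by 1.92 and 0.44. E2f5 fell by 3.47 and 2.01, while E2f8, a repressor of the same family, rose by 1.15 and 3.42.

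Genes of DNA methylation and germline chromatin counted 7 higher and 12 lower of 24, beside 30.1% higher and 35.7% lower over all genes tested. Hells, a helicase needed for DNA methylation, read 18479, 16079 and 17672 and then 1527, 1372, 1494 and 1715, with falls of 3.50, 1.23 and 1.18 in its 3 probe sets. Dnmt3b, a de novo DNA methyltransferase, fell by 0.90 and 0.68. Dnmt3a, its relative, had 5 probe sets from -0.41 to 4.03.

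Ribosomal protein genes, which are bright on these arrays, fell nearly throughout. Of 42 cytosolic ribosomal protein genes 37 fell and 3 rose, and all 13 with agreeing probe sets fell; the median was -0.96. Rps29 read 52640, 50429 and 47294 at E14.5 and 23431, 24563, 24048 and 26670 at E16.5, with falls of 1.02, 0.98 and 0.98 in its 3 probe sets. Rpl7 fell by 1.23 to 3.64 and Rpl41 by 0.96 to 3.35. Of the 42 genes 35 lay in the brightest 10% of all genes, where the median was -0.40 and 55.3% were lower. After quantile normalization the list's median was -0.17. There Rps29 did not pass (-0.12, limma adjusted p = 0.0758) and Rps9, which had fallen by 0.52, was at 0.25. The part of signal brightness in these changes was not tested.

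Of 38 respiratory chain genes 25 fell and 4 rose, with a median of -0.61 (-0.24 after quantile normalization). Of the 38 genes 31 lay in the brightest 10%, where 55.3% of all genes were lower and the median was -0.40. The count of falling members is therefore not particular to the list. Cox5a, of cytochrome oxidase, fell by 1.02 to 1.90 in 3 probe sets, Ndufv2, of complex I, by 1.09 to 1.49, and Cycs, cytochrome c, by 0.53 to 2.23. Ndufa5, another complex I subunit, rose by 1.32 and 0.11. In the class I antigen presentation list of 9, 3 rose and 3 fell. H2-D1 and H2-K1, heavy chains, fell in all 4 of their probe sets each, by 0.68 to 3.73 and by 0.56 to 2.78, and Tapbp, the loading factor tapasin, rose by 1.22 and 1.74.

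The knockout ovaries, from other embryos at the same stages, gave a second measure of the stage change. There 7788 of 12506 genes were called (62.3%). Of the 8225 control calls 6844 were also called the same way in knockouts, which is 83.2% of the control calls and 87.9% of the knockout calls, and 4 were called the opposite way. The difference of the stage change between the genotypes passed for 0 genes in limma (smallest adjusted p = 0.394). Of the 12506 genes 1128 had an unadjusted limma p under 0.05, a level that a share of about 0.05 would pass with no difference. The bioB spike read 1536 to 1940 on the E14.5 knockout arrays and 5108 to 18373 on those of E16.5, so these arrays do not separate stage from processing.

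For the genes named above the changes lay side by side as follows. Among early germ cell genes Sox2 was at -1.06 in the knockouts against -4.24 in the controls, Pou5f1 at -0.77 against -2.89, Dppa5a at -1.52 against -3.13 and Sall4 at 0.44 against -2.27, and none of these differences passed. Stra8 changed by -3.15 against -5.13, Ddx4 by -2.26 against -2.69 and Dmc1 by -1.82 against -2.09. Of the somatic genes Gng13 changed by 1.51 against 2.35, Col1a1 by 2.23 against 2.63, Gli2 by 0.48 against 1.27 and Col25a1 by 0.31 against 1.56. The medians of the pluripotency list were -0.33 in knockouts and -1.54 in controls, and those of the ribosomal list -0.93 and -0.96.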

How the data were processed

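Total RNA of whole ovaries (PicoPure kit, Affymetrix 3' IVT Express labelling of 100 ng for 16 h, per the labels' protocols) was read on 1-colour arrays. Per the submitters' processing notes, the authors used Affymetrix Expression Console and MAS5, their versions not given in the sources used here. Deposited values were linear probe set intensities, and on every array their trimmed mean was 500, which removes global differences in RNA amount. The number of arrays limits the precision.

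Values were taken as log2(signal + 16), which understates changes of dim genes. Of 45037 probe sets 34945 had a single symbol in the platform annotation, 932 several and 9160 none; 34741 matched RefSeq (GRCm38.p6) by gene ID. Probe sets with a mean above 62 over the 7 control arrays were kept (23764), and the brightest stood for its gene (12506 genes). With limma 3.58.1 in R 4.3.3 (with data.table, version 1.17.8), a model of the 4 groups used the 14 arrays (lmFit, then eBayes with a trend), two-sided, with Benjamini-Hochberg adjustment over all genes and a threshold of 0.05. Steps were tested on simulated data. Figures used matplotlib 3.10.9 in Python 3.11.15.

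Members, gene lists and tests were chosen with earlier results of these data known. The rule for named genes takes Nr2f2, Wt1, the 12 highest and 12 lowest agreeing genes with arrays not overlapping (clone symbols left out), up to 5 members past the threshold per list (2 where none passed) and the cell type markers. Of 162 genes followed, 125 came from it; the other 37, mostly further members of the lists, were chosen after their values were seen. Alternatives changed the pseudocount (1 or 64), scaling, filter (none or 200), probe set choice, model and threshold (0.01). Others left out control arrays, or all knockout arrays.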

Additional observations from a re-analysis of the deposited data

Results flagged for a closer look

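Among the 4 E16.5 control arrays, 1 array lay far from the other 3 in 7 of 168 results tested for it (its gap to the nearest array, over the range, exceeded Dixon's critical value; chance flags about 1 in 20 groups). E16.5 control 2 was highest for Irx3 (3631, the others 2530 to 2573) and C1qa (129, the others 93.3 to 97.8) and lowest for Cma1 (249.98, the others 654 to 739). E16.5 control 1 was lowest for Sall4 (47.7, the others 110 to 127) and Slc25a31 (1428, the others 1671 to 1724). Col6a2 was lowest in E16.5 control 3 (5389, the others 6422 to 6469), and Taf4b was highest in E16.5 control 4 (985, the others 771 to 804). Each of these genes kept its direction without the array named. The 3 E14.5 arrays are too few for this check.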

How the results depend on the processing

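Of 154 named genes called, 144 had a value under all 19 alternatives, and 123 of these stayed called in the same direction throughout. The filter of 200 left out the other 10, of which 9 did so under the 18 alternatives that remained, and 20 of 44 gene list medians kept their sign throughout. Median centring took the agreeing genes from 1071 higher and 831 lower to 674 and 1279, and the demand that every probe set pass left 546 lower. Leaving out each of the 7 control arrays in turn gave 3447 to 3611 higher and 4106 to 4308 lower genes. Among agreeing genes it gave 983 to 1059 higher and 762 to 817 lower. No single knockout array was left out. The knockout counts in these fits, 7661 to 7774 genes, moved only through the shared estimate of spread. Their dependence on single knockout arrays was not tested. Signs turned for Col3a1 (0.053), Igf2 (0.13), Igfbp5 (0.10), Rps9 (0.25) and Wt1 (0.049) with quantile normalization, for Nr5a1 (-0.065) with median centring, for Foxl2 without E14.5 control 1 (-0.054, and up to 0.48 without other arrays), and with averaged probe sets for Csf1r (-0.0040), Igf1 (0.40), Igf2 (2.84), Igfbp5 (2.27), Kitl (1.57), Lgr5 (0.49) and Taf4b (0.25); the cause was not tested. Replicate numbers 1 to 3 occur at both stages, and same-numbered arrays had correlations of their deviations of -0.022, 0.026 and 0.068, so they share only a number. With the replicate number as a block 3736 genes were higher and 4475 lower, with 1070 and 832 agreeing and 7738 in knockouts. Array signal near background limits 19 named genes with a stage mean below the filter level, such as Sox2, Pou5f1, Lin28a, Nobox and Pik3cd; another pseudocount moved the fold of 18 of them, and of Cma1 and Smg6, by over 1.5 times.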
